A study of Homo sapiens with 12 samples.

Results

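The ligands and receptors of axon guidance were examined in A375, a human malignant melanoma cell line that carried either an empty retroviral vector or a mutant of the transcriptional coactivator YAP. Members were taken by gene symbol: the class 3 to 7 semaphorins, plexins, neuropilins, ephrin-A and ephrin-B ligands, EPHA and EPHB receptors, SLIT and ROBO proteins, netrins and UNC5 receptors. The symbols numbered 68 and lay on 67 of the 31585 gene loci of the table, since EFNA3 and EFNA4 shared 1 locus. There were 12 RNA-seq libraries in 4 groups of 3: Control (empty MSCV-IRES-Hygro vector), YAP-S127A (1 LATS phosphorylation site changed to alanine), YAP-2SA (S127A with the further LATS site change S381A) and YAP-S94A,S127A (S127A with S94A, which removes binding to the TEAD transcription factors). All cells, the Control cells included, were stably transduced and selected with hygromycin, and the 3 replicates of a group were separately plated cultures of 1 transduced population. A p-value therefore measures the spread between cultures, and the transduction itself was not replicated. The condition entry of the YAP-2SA records also lists S94A, whereas their titles do not, and the group was taken from the titles.

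Semaphorins signal through plexins, and the secreted class 3 semaphorins mostly need a neuropilin as coreceptor. Ephrins are membrane-bound ligands of the EPH receptor tyrosine kinases, the A ligands being held by a lipid anchor and the B ligands crossing the membrane. SLIT proteins bind ROBO receptors, and netrins act through receptors that include the UNC5 family. These cues steer growth cones and migrating neural crest cells, the lineage from which melanocytes arise, and many of them act on cell contacts and vessels in tumors.

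Values were FPKM (fragments scaled by transcript length and by all mapped fragments), so that levels could be compared between genes per length. The FPKM summed to between 790865 and 901558 per library, and read depth was unknown. YAP1 was at 34.1, 33.0 and 172 FPKM in the Control libraries and at 130 to 187.3 FPKM in the other 9, so that Control replicate 3 stood apart and lay within the range of the YAP-expressing libraries. The YAP target CTGF was at 12.7, 12.2 and 12.7 FPKM in Control, at 23.5 to 26.6 FPKM in YAP-S127A, at 52.1 to 66.1 FPKM in YAP-2SA and at 9.94 to 12.8 FPKM in YAP-S94A,S127A, and Control replicate 3 was among the other Control libraries for this gene. Of the melanoma markers, SOX10 averaged 263 ± 25.6 FPKM in Control (SD, n = 3) and 6.16 ± 1.44 FPKM in YAP-2SA, and S100B fell from 46.9 to 0.807 FPKM and CSPG4 from 69.6 to 35.9 FPKM. MITF, the melanocyte lineage regulator, went the other way, from 8.59 to 35.0 FPKM (log2 fold change 1.96), and TYRP1, below the filter, averaged 0.0749 and 0.812 FPKM. PRAME was at 74.6 and 69.0 FPKM and was not called, and PMEL, MLANA, TYR and DCT were under 1 FPKM in every group mean. The summed melanoma markers ranged from 416 to 507 FPKM in Control, from 348 to 440 FPKM in YAP-S127A, from 454 to 500 FPKM in YAP-S94A,S127A and from 144 to 152 FPKM in YAP-2SA. The 7 fibroblast markers summed to 45.8 to 48.2 FPKM in Control, 57.7 to 59.2 FPKM in YAP-S127A, 43.4 to 52.0 FPKM in YAP-S94A,S127A and 81.2 to 89.6 FPKM in YAP-2SA. COL1A1 averaged 0.322, 7.27, 0.209 and 33.4 FPKM in these groups and PDGFRB 2.61, 4.74, 2.82 and 10.4 FPKM, highest in YAP-2SA and next in YAP-S127A, as were several guidance genes below. LUM rose from 1.38 to 2.30 FPKM in YAP-2SA, PDGFRA was at 42.5 and 39.3 FPKM and was not called, and DCN, THY1 and COL1A2 were under 1 FPKM in every group mean. The part of these shifts in the results below was not tested.

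Of the 67 member loci, 46 reached 1 FPKM in at least 3 libraries and were tested, and none of these passed through 1 group alone. SEMA3D and SLIT2 reached 1 FPKM only in YAP-S127A and YAP-2SA libraries. In those groups they were called higher than in Control and than in YAP-S94A,S127A. EPHB3, EPHA7 and SEMA6A did not reach 1 FPKM in any YAP-2SA library and were called lower in YAP-2SA than in each other group. For all these genes the filter was not independent of those comparisons, and they stay in the counts below. SEMA3G and ROBO2 reached 1 FPKM only in Control and YAP-S94A,S127A libraries and were not called in any comparison. EPHA2 was the most abundant member over all 12 libraries with a mean of 92.6 FPKM, followed by SEMA3B with 76.4 FPKM and SEMA6B with 30.04 FPKM. All 4 UNC5 receptors, 3 of the 4 netrins and 5 of the 9 EPHA receptors were below the filter.

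YAP-2SA cells were compared with Control cells to find which guidance genes follow YAP freed from LATS at both sites. Class 3 semaphorins SEMA3F and SEMA3A, the receptor EPHA2, NTN4, ROBO4 and SLIT2 rose, while the receptors EPHA3, EPHB3 and NRP2 fell, EPHA3 by 21.0-fold. By limma with an adjusted p under 0.05, 30 of the 46 members were called (65.2%), 16 higher and 14 lower, against 42.3% of all 15055 loci tested, of which 22.9% were higher and 19.5% lower. A difference of group mean FPKM of over 2-fold was also met by 10 higher and 9 lower members, against 15.5% of all loci (7.59% higher and 7.86% lower). The median absolute log2 fold change was 0.577 over the members and 0.256 over all loci. Without Control replicate 3 the counts were 15 higher and 13 lower.

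**Figure D1:**
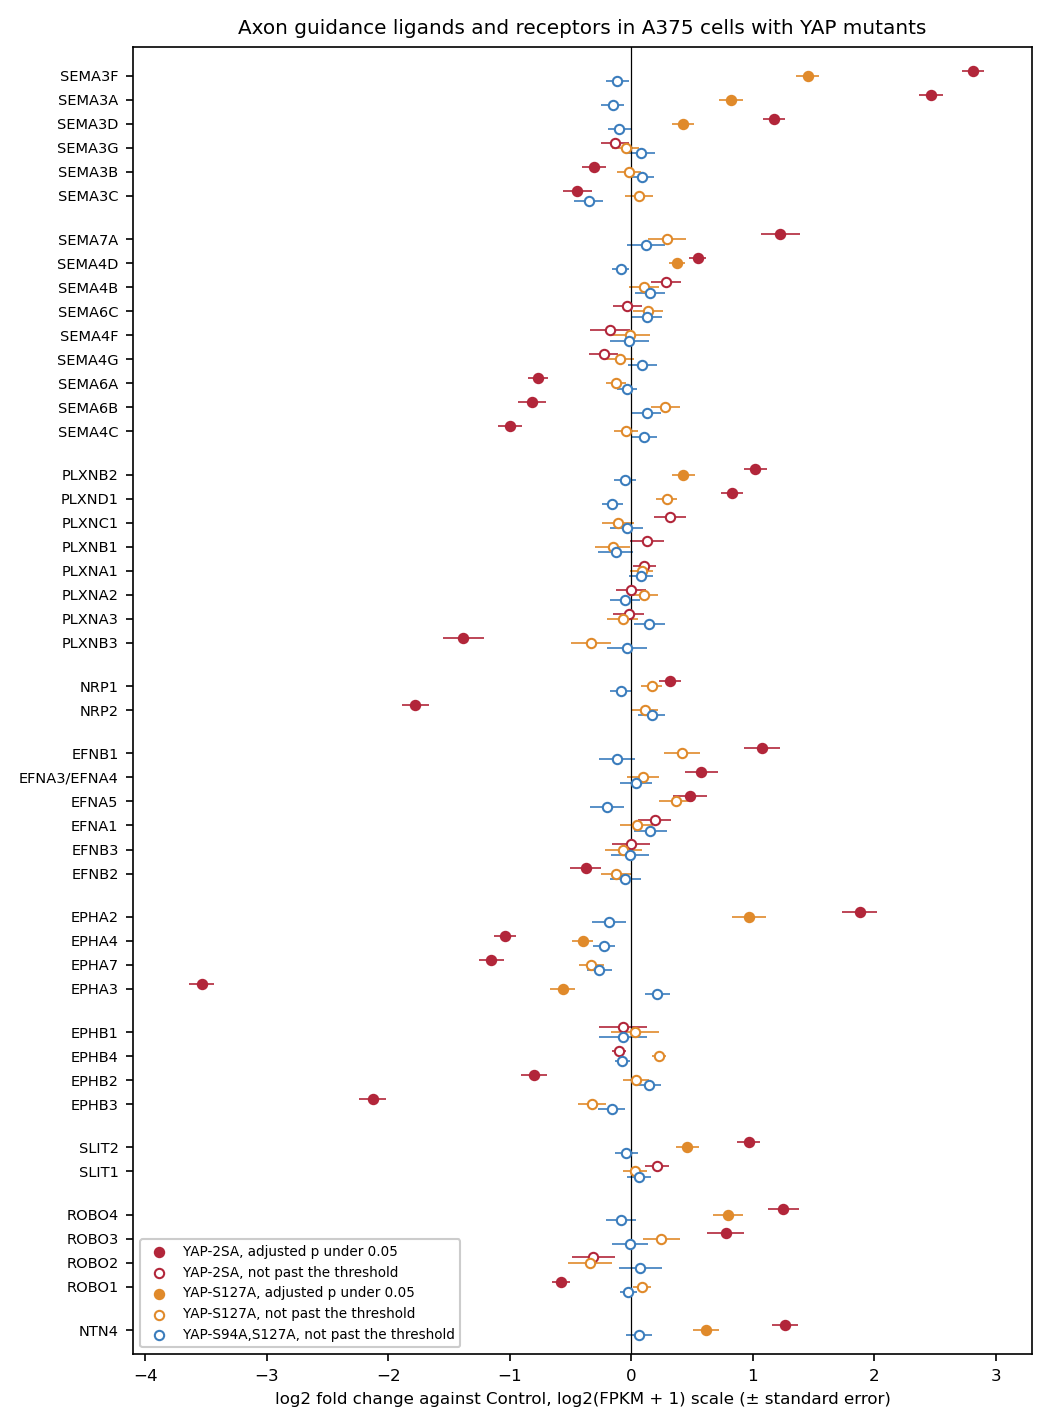
Log2 fold change against Control on the log2(FPKM + 1) scale (x axis) of the 46 tested members, grouped by family (y axis), with YAP-2SA in red, YAP-S127A in orange and YAP-S94A,S127A in blue. Filled points have a limma adjusted p under 0.05, open points do not, and bars are standard errors. The red points spread from -3.53 (EPHA3) to 2.81 (SEMA3F), and none of the blue points is filled.

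Among the secreted class 3 semaphorins, 6 of 7 were tested, and in YAP-2SA 3 rose and 2 fell. SEMA3F, a repellent that binds mainly neuropilin-2, was at 1.58, 1.40 and 1.48 FPKM in Control, at 5.88, 6.16 and 5.37 FPKM in YAP-S127A, at 1.57, 1.19 and 1.15 FPKM in YAP-S94A,S127A and at 16.4, 17.9 and 15.1 FPKM in YAP-2SA. The YAP-S127A libraries lay above all Control libraries and below all YAP-2SA libraries, whereas YAP-S94A,S127A overlapped Control. In YAP-2SA SEMA3F was 11.1-fold higher than in Control, a log2 fold change of 2.81 ± 0.09 (SE, adjusted p = 2.8e-09).

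SEMA3A, a growth cone repellent that binds mainly neuropilin-1, was at 4.28, 4.79 and 4.74 FPKM in Control, at 9.67, 9.86 and 7.35 FPKM in YAP-S127A, at 3.82, 4.30 and 4.01 FPKM in YAP-S94A,S127A and at 29.1, 30.9 and 29.9 FPKM in YAP-2SA. The 4 groups kept the order seen for SEMA3F, and again YAP-S94A,S127A overlapped Control. The rise in YAP-2SA over Control was 6.51-fold, a log2 fold change of 2.47 ± 0.10 (SE, adjusted p = 1.1e-08). SEMA3D rose from a mean of 0.815 FPKM in Control to 3.12 FPKM in YAP-2SA, a log2 fold change of 1.18 (adjusted p = 2.3e-06).

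The 2 class 3 semaphorins that fell in YAP-2SA changed little. SEMA3C was at 12.3, 16.6 and 13.6 FPKM in Control and at 10.2, 10.8 and 9.30 FPKM in YAP-2SA, a log2 fold change of -0.44 (adjusted p = 0.011). SEMA3B, on a locus shared with the transcript BC033528, had a log2 fold change of -0.31. SEMA3B remained the most abundant of the family, but its share of the summed class 3 semaphorin FPKM was 78.0% ± 1.06 in Control and 51.1% ± 0.14 in YAP-2SA (SD, n = 3). The share of SEMA3A was 4.54% in Control and 24.1% in YAP-2SA, and that of SEMA3F was 1.47% and 13.2%. In GRCh37, SEMA3A (chr7:83585093-84122040), SEMA3D (chr7:84624869-84816372) and SEMA3C (chr7:80371854-80551675) lie on the minus strand of the same chromosome 7 region, and SEMA3F (chr3:50192478-50226508) and SEMA3B (chr3:50304990-50314977) lie on the plus strand of chromosome 3. SEMA3E (chr7:82992554-83278455), between SEMA3C and SEMA3A, was below the filter and averaged 0.460 FPKM in Control and 0.470 FPKM in YAP-2SA. SEMA3G, on the minus strand of chromosome 3, was not called.

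Of the 13 class 4 to 7 semaphorins, which are membrane-bound apart from fragments shed from the cell, 9 were tested, 2 rose and 3 fell. SEMA7A, the lipid-anchored semaphorin that binds integrins and plexin C1, was at 10.1, 13.7 and 11.3 FPKM in Control and at 27.1, 31.9 and 26.9 FPKM in YAP-2SA, with a log2 fold change of 1.23 ± 0.16 (SE, adjusted p = 1.1e-04). SEMA4D, a ligand of plexin B1, rose by a log2 fold change of 0.55 (adjusted p = 8.1e-05). SEMA4C fell from 18.7 to 8.85 FPKM on average, SEMA6B from 31.0 to 17.2 FPKM and SEMA6A from 1.49 to 0.459 FPKM, and the log2 fold changes were -0.996, -0.81 and -0.77. For each of these genes the YAP-2SA libraries lay wholly on 1 side of the Control libraries. This held for every member called in this comparison and adds nothing to the calls.

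The semaphorin receptors changed on both sides. Of the 8 tested plexins, the transmembrane receptors of semaphorins, PLXNB2 and PLXND1 rose and PLXNB3 fell in YAP-2SA. PLXNB2 was at 20.7, 21.2 and 24.3 FPKM in Control, at 27.8, 27.4 and 35.4 FPKM in YAP-S127A, at 20.7, 21.4 and 21.6 FPKM in YAP-S94A,S127A and at 44.8, 44.8 and 47.7 FPKM in YAP-2SA, which put every YAP-S127A library between Control and YAP-2SA. Its log2 fold change in YAP-2SA was 1.02 ± 0.09 (SE, adjusted p = 7.9e-06). PLXND1, a receptor of SEMA3E, had a log2 fold change of 0.83 (adjusted p = 2.4e-05), and PLXNB3, on a locus shared with SRPK3, had one of -1.38 (adjusted p = 6.4e-05). The 3 tested plexins of the A group, which pair with neuropilins to receive class 3 semaphorins, were not called in YAP-2SA, and PLXNA1 was at 13.2 to 13.8 FPKM in Control and at 14.4 to 15.1 FPKM in YAP-2SA.

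The neuropilins parted. NRP2 was at 14.7, 17.1 and 15.1 FPKM in Control, at 14.5, 17.7 and 19.0 FPKM in YAP-S127A, at 15.3, 19.5 and 18.5 FPKM in YAP-S94A,S127A and at 3.54, 3.97 and 4.03 FPKM in YAP-2SA. The 3 YAP-2SA libraries were lowest by a wide gap, and the other 3 groups overlapped. NRP2 was 4.07-fold lower in YAP-2SA than in Control, a log2 fold change of -1.78 ± 0.11 (SE, adjusted p = 4.1e-07), while NRP1 was 1.26-fold higher, a log2 fold change of 0.32 (adjusted p = 0.014). NRP1 supplied 50.3% ± 2.72 of the summed neuropilin FPKM in Control and 83.9% ± 1.25 in YAP-2SA (SD, n = 3).

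**Figure D2:**
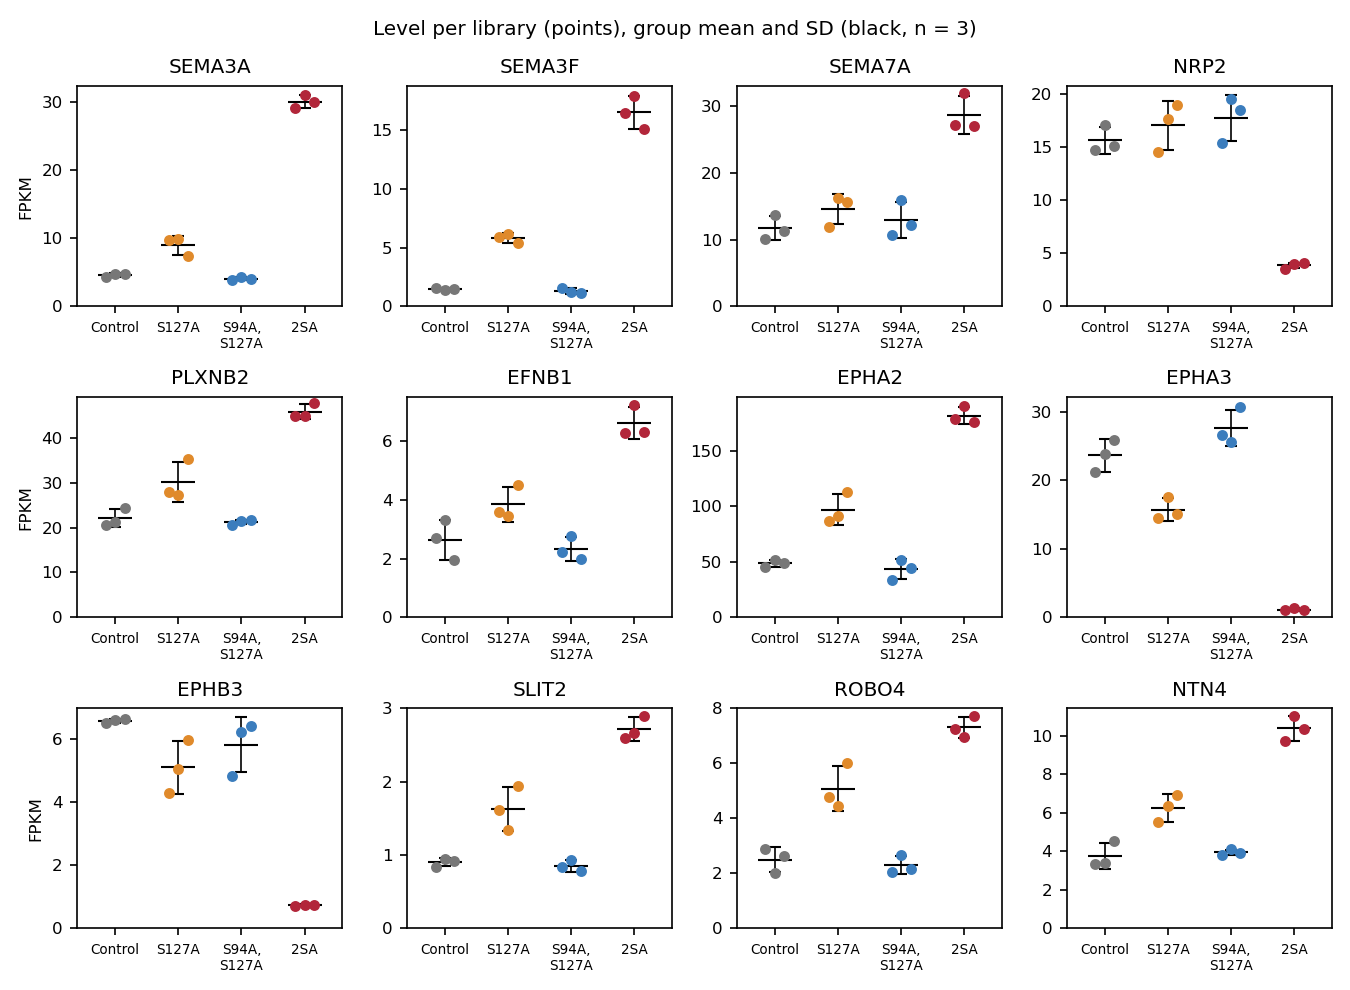
FPKM (y axis, from 0) of 12 members in each library (points) by group (x axis), with the group mean and SD in black (n = 3). For SEMA3A, SEMA3F, PLXNB2, EPHA2, SLIT2, ROBO4 and NTN4 the YAP-S127A points lie between those of Control and YAP-2SA, whereas for NRP2 the YAP-2SA libraries alone stand apart, at 3.54 to 4.03 FPKM.

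The ephrin ligands had log2 fold changes between -0.37 and 1.08 in YAP-2SA. Of the 6 tested ephrin loci, EFNB1, EFNA3/EFNA4 and EFNA5 rose and EFNB2 fell. EFNB1 was at 2.69, 3.302 and 1.94 FPKM in Control and at 6.29, 7.24 and 6.32 FPKM in YAP-2SA, with no overlap and a log2 fold change of 1.08 ± 0.15 (SE, adjusted p = 1.6e-04). The log2 fold changes of EFNA3/EFNA4, EFNA5 and EFNB2 were 0.58, 0.48 and -0.37. EFNA1, the ligand best known for EPHA2, was at 9.51 to 13.3 FPKM in Control and at 12.7 to 12.8 FPKM in YAP-2SA, and was not called.

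The EPH receptors were dominated by EPHA2, and this dominance grew. EPHA2, a receptor that also signals without ligand in tumor cells, was at 45.1, 51.5 and 49.3 FPKM in Control, at 86.4, 91.5 and 113 FPKM in YAP-S127A, at 33.9, 51.5 and 44.7 FPKM in YAP-S94A,S127A and at 179, 190 and 176 FPKM in YAP-2SA. The YAP-S127A and YAP-2SA libraries lay above all Control libraries without overlap of each other. EPHA2 was 3.73-fold higher in YAP-2SA than in Control, a log2 fold change of 1.88 ± 0.14 (SE, adjusted p = 1.6e-06).

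EPHA3, an ephrin-A receptor found in several tumors, showed the converse. It was at 21.1, 23.8 and 25.9 FPKM in Control, at 14.5, 17.6 and 15.0 FPKM in YAP-S127A, at 26.6, 25.6 and 30.6 FPKM in YAP-S94A,S127A and at 0.995, 1.31 and 1.07 FPKM in YAP-2SA. The YAP-S127A libraries were below every Control library, and the YAP-2SA libraries were far below both. EPHA3 was 21.0-fold lower in YAP-2SA than in Control, a log2 fold change of -3.53 ± 0.10 (SE, adjusted p = 1.3e-09), the largest of the members in absolute terms. EPHA7 and EPHA4 fell as well, by 1.15 and 1.04 on the log2 scale (adjusted p = 6.0e-06 and 4.8e-06), so that the 3 tested EPHA receptors other than EPHA2 were all lower.

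Of the 4 tested EPHB receptors, which bind the transmembrane ephrins, 2 fell and none rose in YAP-2SA. EPHB3 was at 6.51, 6.61 and 6.63 FPKM in Control, at 4.29, 5.05 and 5.97 FPKM in YAP-S127A, at 4.83, 6.21 and 6.41 FPKM in YAP-S94A,S127A and at 0.701, 0.753 and 0.745 FPKM in YAP-2SA. YAP-2SA stood apart. The YAP-S127A and YAP-S94A,S127A libraries overlapped each other and lay below every Control library, but neither group was called against Control. The ratio of Control to YAP-2SA was 8.98, a log2 fold change of -2.13 ± 0.11 (SE, adjusted p = 1.0e-07). EPHB2 fell by 0.80 on the log2 scale (adjusted p = 1.2e-04), and EPHB4 and EPHB1 were not called.

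**Figure D3:**
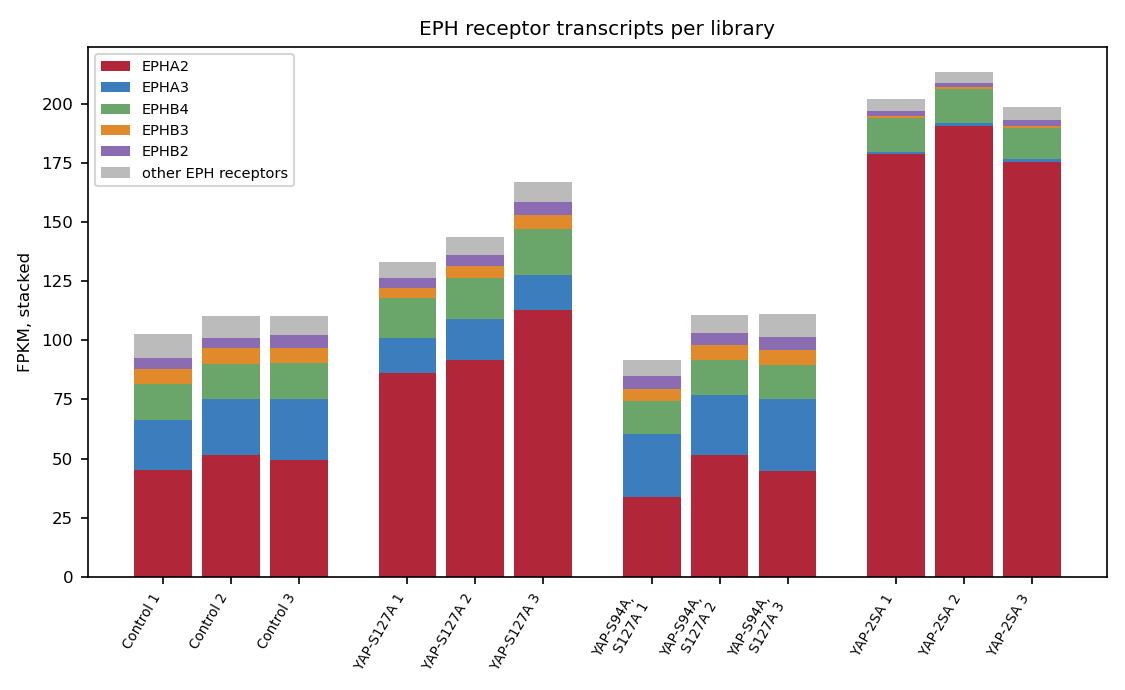
FPKM of the EPH receptors stacked per library (y axis, from 0) for the 12 libraries (x axis), with the 5 most abundant named and the others summed in grey. The sum is 102 to 111 FPKM in Control and 199 to 213 FPKM in YAP-2SA, and the blue EPHA3 and orange EPHB3 segments, at 21.1 to 25.9 and 6.51 to 6.63 FPKM in Control, are barely visible in YAP-2SA.

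Summed over the 14 EPH receptors, the level rose from 108 ± 4.52 FPKM in Control to 205 ± 7.73 FPKM in YAP-2SA (SD, n = 3). The share of EPHA2 in this sum was 45.1% ± 1.33 in Control, 65.3% ± 1.91 in YAP-S127A, 41.2% ± 4.90 in YAP-S94A,S127A and 88.7% ± 0.47 in YAP-2SA. EPHA3 supplied 21.9% ± 1.48 of it in Control and 0.547% ± 0.06 in YAP-2SA.

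The remaining families gave mostly rises. SLIT2, a secreted repellent, was at 0.839, 0.941 and 0.918 FPKM in Control, at 1.61, 1.34 and 1.93 FPKM in YAP-S127A, at 0.830, 0.933 and 0.781 FPKM in YAP-S94A,S127A and at 2.59, 2.65 and 2.90 FPKM in YAP-2SA, with the YAP-S127A libraries between those of Control and YAP-2SA. Its log2 fold change in YAP-2SA was 0.97 ± 0.09 (SE, adjusted p = 1.2e-05). SLIT1, on a locus shared with ARHGAP19, was not called. The ROBO family divided: ROBO1 fell by 0.58 on the log2 scale (adjusted p = 9.3e-05), while ROBO3 and ROBO4 rose by 0.78 and 1.25 (adjusted p = 1.8e-03 and 1.4e-05), and ROBO2 was not called.

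ROBO4, a ROBO family member known from endothelial cells, was at 2.88, 2.01 and 2.61 FPKM in Control and at 7.24, 6.95 and 7.72 FPKM in YAP-2SA. The 7 endothelial markers summed to at most 3.12 FPKM in any library and to 1.88 to 2.12 FPKM in YAP-2SA, where ROBO4 was highest. Within that sum the markers moved in both directions: from Control to YAP-2SA ESAM went from 1.42 to 0.831 FPKM and KDR from 0.761 to 0.171 FPKM, while CDH5 went from 0.118 to 0.452 FPKM. TEK averaged 0.0421 FPKM in Control, 0.184 FPKM in YAP-S127A, 0.0271 FPKM in YAP-S94A,S127A and 0.346 FPKM in YAP-2SA, the same order of groups as ROBO4, and PECAM1, VWF and CLDN5 were near 0. The part of these markers in the ROBO4 result was not tested. NTN4, the only tested netrin and one that also binds laminins, was at 3.32, 3.39 and 4.54 FPKM in Control, at 5.49, 6.35 and 6.91 FPKM in YAP-S127A, at 3.82, 4.09 and 3.93 FPKM in YAP-S94A,S127A and at 9.73, 11.03 and 10.3 FPKM in YAP-2SA. Its log2 fold change in YAP-2SA was 1.27 ± 0.11 (SE, adjusted p = 4.0e-06).

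Of the 30 calls in YAP-2SA against Control, 26 held under every processing alternative that included the locus, and those of SEMA3B, NRP1, EFNA5 and EFNB2 were lost in at least 1. The fit on loci with 1 symbol only left out SEMA3B, PLXNB3 and EFNA3/EFNA4, here and in the later counts. Both SEMA3B and NRP1 lost theirs without Control replicate 3, with log2 fold changes of -0.28 and 0.27. For SEMA3A, SEMA3F, NRP2, EPHA2, EPHA3 and EPHB3 the call held without that library.

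YAP-S127A was compared with Control to see which members moved when 1 LATS site was changed. By limma, 11 members were called (23.9%), 9 higher and 2 lower, against 6.31% of all loci (4.56% higher and 1.75% lower). SEMA3F (log2 fold change 1.45, adjusted p = 8.1e-06), EPHA2 (0.97, adjusted p = 0.002), SEMA3A (0.82, adjusted p = 5.3e-04), ROBO4, NTN4, SLIT2, SEMA3D, PLXNB2 and SEMA4D rose. SEMA3F and ROBO4 were the members called with a ratio over 2-fold, at 3.91 and 2.03, against 2.07% of all loci. EPHA3 and EPHA4 fell by 0.56 and 0.40 on the log2 scale, and NRP2, at 0.11, and EPHB3, at -0.32, were not called. Of the 11 calls, 4 held under every alternative, those of SEMA3A, SEMA3F, EPHA2 and ROBO4. Fitted on the 6 compared libraries alone, 4 members were higher and 0 lower. EPHA4 lost its call without Control replicate 2, without Control replicate 3, without YAP-S127A replicate 1 and without YAP-S127A replicate 2, and without Control replicate 3 the counts were 8 higher and 2 lower.

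YAP-S94A,S127A, which cannot bind TEAD, was compared with Control to see which members moved without TEAD binding. No member was called by limma, against 0.179% of all loci (0.0864% higher and 0.0930% lower), and the lowest adjusted p among the members was 0.864. At an unadjusted p under 0.05 there were 3, SEMA3C, EPHA4 and EPHA7, with log2 fold changes of -0.35, -0.22 and -0.26, against 4.39% of all loci, and this count is no result about the members. The median absolute log2 fold change was 0.091 over the members and 0.065 over all loci.

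The direct comparison of YAP-2SA with YAP-S127A tested the step from 1 changed LATS site to 2. It called 28 members, 14 higher and 14 lower, against 32.8% of all loci (18.3% higher and 14.5% lower), and 23 of the calls held under every alternative. Over 2-fold, 3 members were higher (SEMA3A at 3.34-fold, SEMA3F at 2.84-fold and SEMA3D at 2.16-fold) and 10 were lower, against 5.17% and 5.94% of all loci. The falls were led by EPHA3 (13.97-fold), EPHB3 (6.96-fold) and NRP2 (4.43-fold), with log2 fold changes of -2.97, -1.81 and -1.89. EPHA2 was 1.88-fold higher in YAP-2SA than in YAP-S127A (adjusted p = 6.0e-04).

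YAP-S127A and YAP-S94A,S127A differ by the TEAD-binding site. Of the members, 15 were called, 14 higher in YAP-S127A and 1 lower, against 10.7% of all loci (6.36% higher and 4.31% lower). SEMA3F (4.45-fold), EPHA2 (2.23-fold), SEMA3A (2.22-fold), ROBO4 (2.22-fold) and SEMA3D (2.07-fold) were over 2-fold higher with TEAD binding intact, against 2.54% of all loci, and EPHA3 was 1.76-fold lower. For SEMA3D the filter was not independent of this comparison. EPHB4, which was not called in YAP-2SA against Control, was 1.25-fold higher (adjusted p = 9.8e-03). Of the 15 calls, 10 held under every alternative, and those of SEMA3C, EFNA5, EFNB1, EPHB4 and SLIT2 did not. YAP-2SA against YAP-S94A,S127A, which differ at 2 sites, called 28 members, 16 higher and 12 lower, against 43.5% of all loci (23.2% higher and 20.3% lower), and all 28 calls held under every alternative.

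The comparisons of YAP-2SA with Control and of YAP-S127A with YAP-S94A,S127A share no library, but their calls came from 1 fit. Its estimate of the spread drew on all 12 libraries, so the calls are not independent. Fitted on its own 6 libraries, the second comparison lost 4 of its 15 calls. There were 14 members called in both, of which 12 rose in both and EPHA3 fell in both. SEMA3C was lower in YAP-2SA than in Control and higher in YAP-S127A than in YAP-S94A,S127A. It averaged 14.2 FPKM in Control, 14.7 FPKM in YAP-S127A, 10.9 FPKM in YAP-S94A,S127A and 10.1 FPKM in YAP-2SA. In YAP-S127A against Control it was not called. Its call in the second comparison was lost when any YAP-S127A or YAP-S94A,S127A library was left out. The second calls of SEMA3C and EFNB1 were also lost when any YAP-2SA library was left out. Of the 30 members called in the first, 27 (90.0%) had the same sign in the second, against 84.1% of the 6375 loci called in the first.

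**Figure D4:**
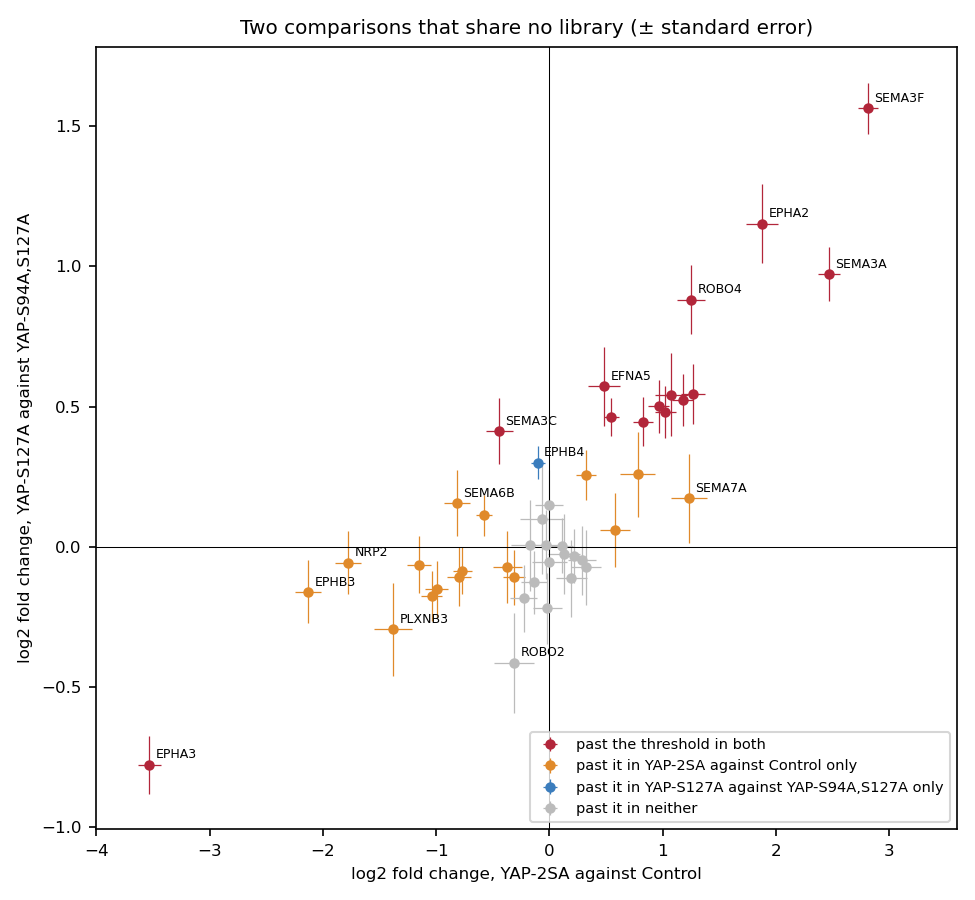
Log2 fold change of the 46 tested members in YAP-2SA against Control (x axis) and in YAP-S127A against YAP-S94A,S127A (y axis), with standard errors. Red points are past an adjusted p of 0.05 in both, orange in the first, blue in the second and grey in neither. SEMA3F, EPHA2 and SEMA3A lie at the upper right, EPHA3 at the lower left, and NRP2 and EPHB3 lie far left but near 0 on the y axis, at -0.06 and -0.16.

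The promoters of SEMA3F and EPHA2 are shown because these genes were called and rose in YAP-S127A and YAP-2SA but were not called in YAP-S94A,S127A, and because each window holds the core TEAD motif GGAATG or its reverse complement before the start. NTN4 had the same calls, but the motif in its window lies after the start, and it is not shown. SEMA3A, ROBO4, SLIT2, SEMA3D, PLXNB2 and SEMA4D also had these calls, and none of them had a window with the motif. For SEMA3A there was no window to search. The genes shown were thus chosen in part for holding the motif. The windows come from RefSeq on GRCh38.p14 and run 5′ to 3′ on the strand of the gene, from 250 bases before the start to 50 after it. Capitals mark the motif, 63 bases before the SEMA3F start and 73 before the EPHA2 start.
SEMA3F (chr3:50155074-50155373, plus strand): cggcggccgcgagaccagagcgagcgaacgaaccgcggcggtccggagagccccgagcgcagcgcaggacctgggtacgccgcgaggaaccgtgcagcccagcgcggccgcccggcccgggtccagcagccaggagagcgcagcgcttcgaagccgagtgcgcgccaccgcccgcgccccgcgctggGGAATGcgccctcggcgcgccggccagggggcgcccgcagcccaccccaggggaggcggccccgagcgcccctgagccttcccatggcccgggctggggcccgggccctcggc
EPHA2 (chr1:16156020-16156319, minus strand): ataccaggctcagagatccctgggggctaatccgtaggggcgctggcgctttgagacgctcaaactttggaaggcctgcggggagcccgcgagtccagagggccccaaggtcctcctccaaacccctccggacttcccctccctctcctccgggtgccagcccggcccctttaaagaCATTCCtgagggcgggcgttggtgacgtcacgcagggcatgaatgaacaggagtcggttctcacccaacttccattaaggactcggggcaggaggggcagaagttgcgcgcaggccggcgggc
The motif was searched on both strands in 90 windows of the 58 member symbols found among the promoters, and 10 windows (11.1%) held it, against 14.0% of all 35116 promoters. Split by the call in YAP-2SA against Control, 4 of 21 windows of higher members, 3 of 22 of lower members and 1 of 21 of members not called held it. The AP-1 motif TGANTCA was in 1 of the 90 windows, that of PLXNC1, against 7.71% of all promoters. A match is a description of the letters and does not show a binding site.

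Genes of the wider pathway were followed from 2 lists. Of 10 tested other cues, receptors and coreceptors, 4 rose and 5 fell in YAP-2SA against Control (42.3% of all loci called), 2 rose in YAP-S127A (4.56% of all loci higher) and none was called in YAP-S94A,S127A (0.179% of all loci). FLRT3, an adhesion protein that binds UNC5 receptors, was at 20.3 to 31.4 FPKM in Control and at 0.469 to 0.788 FPKM in YAP-2SA, a log2 fold change of -4.02 (adjusted p = 3.3e-08). L1CAM, an adhesion molecule of growing axons, rose from 12.4 to 101 FPKM on average, a log2 fold change of 2.92 (adjusted p = 4.2e-08). CDON, a hedgehog coreceptor, fell by 0.83 on the log2 scale.

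Of the 36 tested cytoplasmic effectors that act below these receptors, 12 rose and 10 fell in YAP-2SA (22.9% of all loci higher and 19.5% lower), 5 rose in YAP-S127A (4.56% of all loci higher) and none was called in YAP-S94A,S127A (0.179% of all loci). The collapsin response mediator DPYSL3, which acts downstream of semaphorins, rose by a log2 fold change of 1.99 (adjusted p = 1.5e-08), and MICAL2, an actin-oxidizing enzyme, rose by one of 1.96. TIAM1, an activator of RAC that can couple to EPH receptors, fell by 1.80 on the log2 scale. The median log2 fold change in YAP-2SA was -0.198 over the other cues and 0.136 over the effectors, against 0.008 over all loci.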

How the data were processed

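Transcript levels of 12 A375 libraries were taken from the table deposited by the authors, which holds log2(FPKM + 1) values per gene locus (hg19). Per the labels the pipeline used bcl2fastq 2.15.0, Bowtie2 2.0.0, TopHat2 2.0.4 and Cufflinks 2.0.2. Since the deposited log2 values are not counts, no count test was run and depth is unknown. The records and the methods give different culture times. Loci with at least 1 FPKM in 3 libraries (15055) were fitted in limma 3.58.1 (R 4.3.3) (a mean for each group, variance trend on level, two-sided), with Benjamini-Hochberg adjustment over all loci tested and a threshold of 0.05. Each log2 fold change is a difference of mean log2(FPKM + 1) and is too small for genes of low level, and ratios are of group mean FPKM. The fit was tested on simulated data. The members and lists were chosen with earlier results of these data known. Every member could be named, with full statistics for up to 4 per family with no library overlap in YAP-2SA against Control, and the 3 largest called changes of each list. An exact permutation test of 3 against 3 libraries cannot go below p = 0.1. Alternatives covered the filter, pseudocount, scaling, trend, samples fitted, replicate block and each library left out. Keratinocyte markers summed to 23.6 to 30.5 FPKM in YAP-2SA and 30.3 to 33.5 FPKM in Control, and immune markers to 110 to 119 and 89.1 to 102 FPKM. Within these sums KRT14 averaged 6.87 FPKM in Control and 0.434 FPKM in YAP-2SA, KRT5 0.0282 and 1.56 FPKM, CD68 80.2 and 111 FPKM, and LYZ 15.9 and 2.51 FPKM.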

Additional observations from a re-analysis of the deposited data

How the results depend on the processing

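Over 21 alternatives, none of the 112 calls of members changed direction. Of these calls, 112 held with another scaling by median ratios and with a pseudocount of 0.1, and 96 held when each comparison was fitted on its 6 libraries alone. The fit on loci with 1 symbol only left out shared loci and covered 103 of the calls, which all held. In YAP-S127A against Control that fit left 4 members higher and 0 lower. Leaving out 1 library at a time gave 7 to 9 higher and 1 to 2 lower members there, 14 to 17 and 12 to 14 in YAP-2SA against Control, and 0 in YAP-S94A,S127A against Control. The single lower member was seen without Control replicate 2, without YAP-S127A replicate 1 and without YAP-S127A replicate 2, each time because the call of EPHA4 was lost. Counting ratios over 2-fold alone among the calls left 19 of the 30 members called in YAP-2SA against Control. A fit with the replicate number as a block changed 0 of the 112 calls, and the numbers did not pair the samples, since same-numbered libraries correlated at -0.149 to 0.163 after group means were removed. Depth was unknown, so no limit of detection could be set for members near 0.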

Other observations

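The 21 members below the filter were also fitted, in a limma fit without a filter over all 31585 loci. In YAP-2SA against Control 5 were higher and 2 lower, against 21.1% of all loci called in that fit. SEMA5A, a transmembrane semaphorin with thrombospondin repeats, was at 0.0490, 0.0659 and 0.0725 FPKM in Control, at 0.253, 0.351 and 0.224 FPKM in YAP-S127A, at 0.0345, 0.0217 and 0.0483 FPKM in YAP-S94A,S127A and at 0.806, 1.01 and 0.871 FPKM in YAP-2SA, and it was higher in YAP-2SA (adjusted p = 1.6e-06) and in YAP-S127A (adjusted p = 0.017) than in Control. The netrin receptor UNC5C averaged 0.410 FPKM in Control and 0.0168 FPKM in YAP-2SA (adjusted p = 1.7e-05). The others called were SEMA6D, EPHA6, NTN1 and NTN5, which were higher, and UNC5B, which was lower, all under 1 FPKM in every library. SEMA5B was listed at 0 in all 12 libraries.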
